A study of Mus musculus with 2 samples.

Results

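Cytosolic ribosomal proteins are the protein components of the ribosomes that translate nuclear mRNAs in the cytosol. Their genes were taken from the gene names on the arrays: names beginning Rpl (large subunit) or Rps (small subunit) and followed by a number, with Rplp0, Rplp1, Rplp2 and Rpsa. Kinases of ribosomal protein S6 and pseudogenes were left out. The rule found 83 genes among 37072 named targets, 51 of the large and 32 of the small subunit. Each gene was represented by its brightest probe that the scanner software called well above background on both arrays, and 79 genes had such a probe (48 large, 31 small) out of 20782 measured targets. Total RNA of mouse cells was measured on 2 arrays, with S180 as the agent of the first and DMSO, a solvent, as the agent of the second, which is the control. Cell type, dose, time of exposure and the identity of S180 are not stated in the labels, so no labelled cell type could be checked against its markers. The arrays had 62976 spots each, in a single colour (Cy3), shared a slide and a scan, and had no saturated spots. Since each group had 1 array, the precision is limited by the number of arrays, the differences could not be checked against replicates and no p-values were computed. The error given is the spread between replicate spots of a probe, which leaves out the culture and the preparation of the RNA.

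A ribosome is assembled from a small subunit, which reads the mRNA, and a large subunit, which joins amino acids, each a core of ribosomal RNA with its proteins. The proteins are needed in nearly equal numbers, and cells usually make their mRNAs together. Most of these mRNAs begin with a C followed by a run of C and T (U in the RNA), the 5′ terminal oligopyrimidine (TOP) tract, through which the kinase mTOR controls their translation rather than their amount.

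The first bases of the genes are shown because this tract is what the mRNAs share. RefSeq start positions on assembly GRCm38.p6 were found for 62 of the 83 genes. A run of C followed by at least 4 bases that are C or T, read on the strand of the gene and counted from the listed first base, was present at a start of 13 of the 62 genes (21.0%). It was present in 813 of 27025 genes in the same reference table (3.01%) and in 0 of 69 mitochondrial ribosomal protein genes. Allowing the run to begin up to 20 bases to either side raised the count to 51 of 62 (82.3%), against 52.6% of all genes and 59.4% of the mitochondrial set. Of the large subunit genes 7 of 39 had the run at the listed start and of the small subunit genes 6 of 23. The windows below hold 10 bases before and 20 bases from the listed start, 5′ to 3′ on the gene's strand, with the run at the start in capitals.
Rpl14: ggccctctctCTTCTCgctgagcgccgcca
Rpl35: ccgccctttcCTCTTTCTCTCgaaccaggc
Rpl38: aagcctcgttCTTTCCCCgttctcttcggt
Rplp2: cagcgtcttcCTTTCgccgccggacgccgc
Rps6: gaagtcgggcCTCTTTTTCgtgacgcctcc
Rps10: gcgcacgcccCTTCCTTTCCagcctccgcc
Rps18: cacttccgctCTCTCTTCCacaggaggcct
Rps21: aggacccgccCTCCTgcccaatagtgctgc
Rps24: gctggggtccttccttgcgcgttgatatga
Rpl22l1: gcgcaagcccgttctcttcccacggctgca
Rpl7l1: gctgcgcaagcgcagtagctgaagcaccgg
These windows lie at chr9:120571507-120571536 on the plus strand (Rpl14), chr2:39005112-39005141 on the minus strand (Rpl35), chr11:114668570-114668599 on the plus strand (Rpl38) and chr7:141447641-141447670 on the plus strand (Rplp2). They lie at chr4:86857348-86857377 on the minus strand (Rps6), chr17:27635225-27635254 on the minus strand (Rps10), chr17:33955646-33955675 on the minus strand (Rps18) and chr2:180257369-180257398 on the plus strand (Rps21). The last 3 windows, which have no such run at the listed start, lie at chr14:24490668-24490697 on the plus strand (Rps24), chr3:28805498-28805527 on the plus strand (Rpl22l1) and chr17:46782637-46782666 on the minus strand (Rpl7l1). The 13 measured genes with a run at the start had a median log2 difference, S180 minus DMSO, of 0.15 (range 0.04 to 0.23), and the 46 measured genes with a listed start but no run there had a median of 0.14.

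The ribosomal protein genes moved as a narrow block between the arrays. Before any scaling, the signal of the brightest probe was lower on the S180 array for all 79 genes, with a median log2 difference of -0.14. At least 85.1% of all measured genes were also lower on that array, since this share lay below Rps24, the highest of the 79. The signal of the median measured gene was lower still, by a log2 difference of -0.28, so that with each array scaled to its 75th percentile the ribosomal protein genes had a median log2 difference of 0.14, a 1.10-fold higher signal in S180, beside 0.00 for the median gene. With this scaling 75 of 79 (94.9%) lay above the median gene, where 50% of the 20782 measured genes lie by definition, whereas after quantile normalization and in the authors' deposited table the number was 20 of 79. Scaling on 8 spike-in transcripts, added in known amounts, put the median gene at -0.35 and the ribosomal protein genes at -0.21. Percentile, spike-in and no scaling differ by 1 constant per array, so that the distance of the block from the median gene, 0.14, is the same in all 3 by construction. After quantile normalization, which changes the shape of the distribution, the distance was -0.0316.

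The size of the difference was small for single genes. Only Rps24 reached a 1.2-fold higher scaled signal in S180, a level passed by 15.1% of all measured genes, and Rpl37 was the 1 gene at least 1.2-fold lower, against 11.8% of measured genes. Of genes in the brightest of 3 groups of equal number, which held 77 of the 79, 52.3% lay above the median gene, 8.76% were at least 1.2-fold higher and 3.78% at least 1.2-fold lower. No ribosomal protein gene differed 1.5-fold in either direction, while 3.08% of measured genes were at least 1.5-fold higher and 1.71% at least 1.5-fold lower (1.66% and 0.101% in the brightest of the 3 groups). In 76 of the 79 genes the mean scaled log2 signal of the 2 arrays was 6 or more, and the differences of these 76 ranged from -0.06 to 0.27 with an SD of 0.063, 68 of them within 0.1 of their median. The SD of a difference between single spots, from 61 replicated probes of these genes, was 0.038. With percentile scaling, the distance to the median gene was over 2 such SDs, upwards, in 64 of 79 genes, beside 36.6% of all measured genes. That share is not one of like signal, since the same SD was used for dim genes, whose spot SD was 0.266. In 839 other genes with scaled signals of 6 to 9, the median difference was 0.139 and the lower quartile 0.064. Most genes of like signal thus lay above the median gene too.

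**Figure D1:**
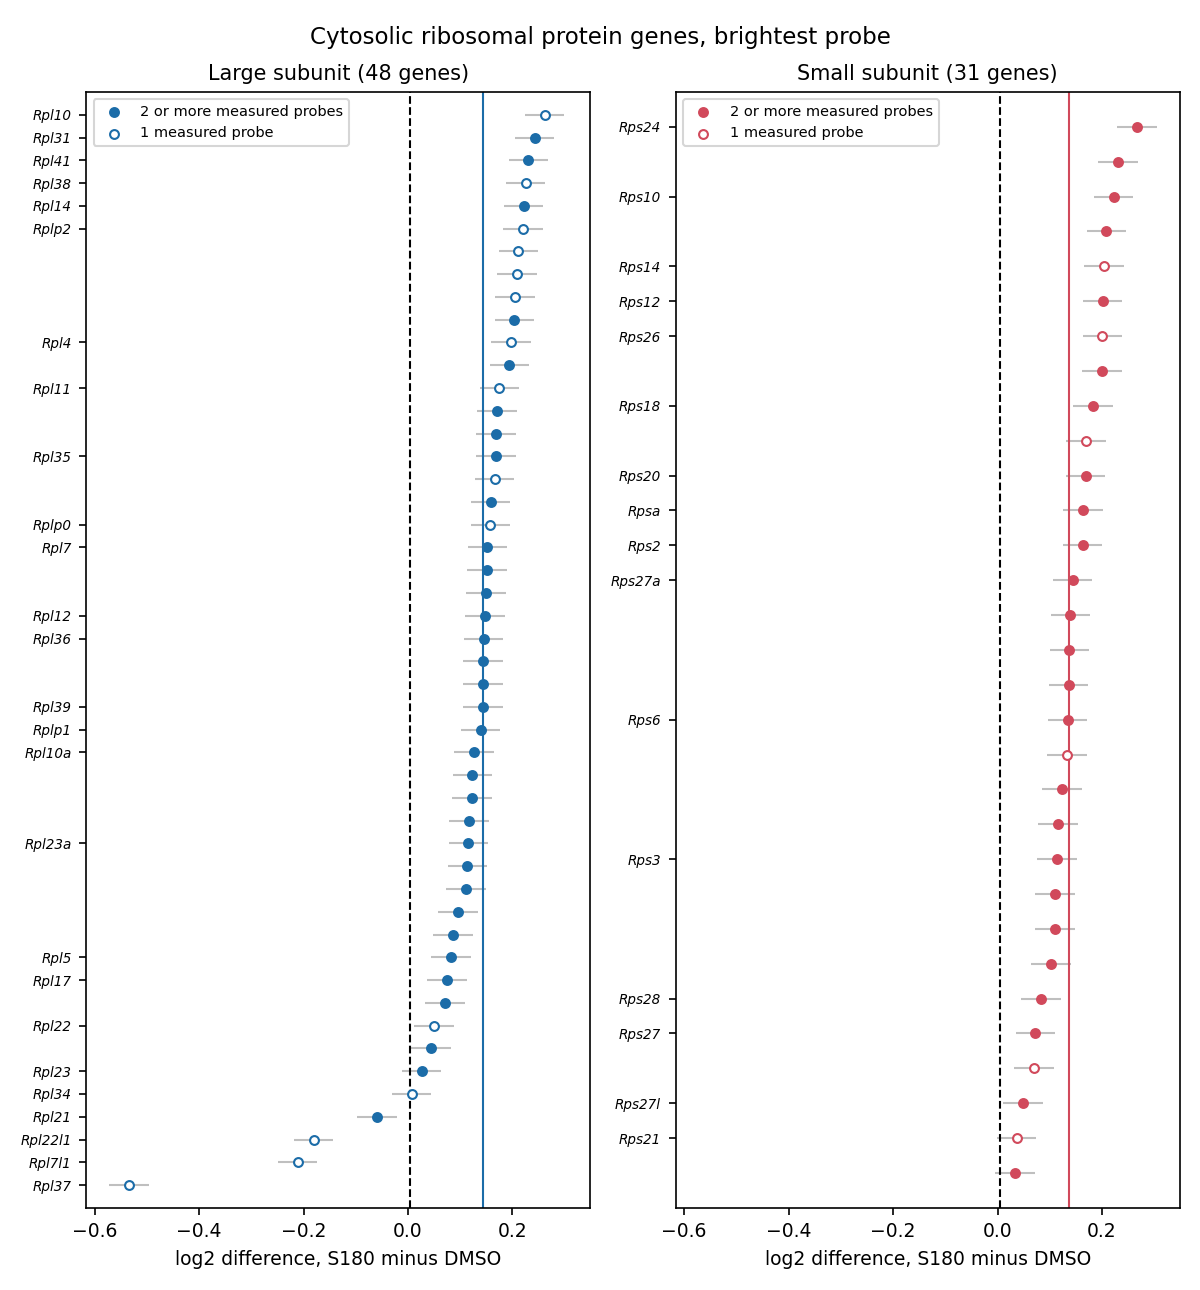
Log2 difference, S180 minus DMSO, of the brightest probe of each measured ribosomal protein gene, after scaling each array to its 75th percentile, with large subunit genes on the left and small subunit genes on the right, labelled where the gene is named in the text. Bars show 1 SD of a difference between single spots (0.038), the dashed line is the median of all measured genes and the coloured lines are the subunit medians (0.14 each); 75 of 79 points lie to the right of the dashed line with this scaling, and 20 of 79 genes lay above the median gene after quantile normalization.

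The large and the small subunit had nearly the same median difference. The 48 large subunit genes had a median log2 difference of 0.14 (SD 0.13) and the 31 small subunit genes a median of 0.14 (SD 0.059), and the medians differed by 0.0069. The means ran the other way, at 0.11 for the large and 0.14 for the small subunit, a difference of -0.029 that rests on 3 large subunit genes with low values, Rpl37, Rpl7l1 and Rpl22l1. Of the large subunit genes 44 of 48 lay above the median gene and of the small subunit genes 31 of 31. Among genes with a mean scaled signal of 6 or more, the large subunit had a median of 0.15 (n = 45, SD 0.066) and the small subunit 0.14 (n = 31, SD 0.059). The gap between the subunit medians stayed between -0.011 and 0.0096 under the processing alternatives.

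The genes with the highest differences came from both subunits. Rps24, a small subunit protein whose human gene is mutated in Diamond-Blackfan anaemia, had a signal of 82637 in S180 and 83441 in DMSO, a scaled log2 difference of 0.27. Rpl10, which completes the large subunit near the site of peptide bond formation, had signals of 231329 and 234510 (0.26). Rpl31, on the rim of the tunnel through which the new chain leaves, had signals of 110953 and 113960 (0.24). In these 3 genes the unscaled signals of the arrays were within a few percent of each other, and the scaled difference comes from the lower 75th percentile of the S180 array. Rpl41, a very short peptide at the interface of the subunits, had signals of 223487 in S180 and 231450 in DMSO (0.23). Rpl38, needed in mice for the translation of certain Hox mRNAs, had signals of 136584 and 141973 (0.23). Rps10, a small subunit head protein, and Rpl14, on the surface of the large subunit, followed at 0.22 each, with signals of 172220 and 179415 for Rps10 and of 107045 and 111573 for Rpl14. Neither Rpl10 nor Rpl38 had another measured probe, so their values rest on 1 spot per array. A replicated second probe gave 0.05 (SE 0.011) for Rpl31 and 0.10 (SE 0.0080) for Rpl41, lower than the brightest probe of each. The order of these genes is not settled by the spots, since 0.27 and 0.22 differ by little more than the spot SD of 0.038.

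The genes at the other end were large subunit genes and name-related copies. Rpl37, a small zinc-binding protein of the large subunit, had a signal of 32.6 in S180 and 57.3 in DMSO, a log2 difference of -0.53. This probe lay among the dim measured probes, where replicate spots were further apart (SD of a single-spot difference 0.266, from 11 replicated probes). A target named Rpl37rt in the files, outside the name rule and chosen after its values were seen, had signals of 175453 and 181127 and a difference of 0.24. Rpl7l1, a name-related copy of Rpl7, had signals of 797 in S180 and 1122 in DMSO (-0.21), and Rpl22l1, the copy of Rpl22 that can take its place in the ribosome, had signals of 16809 and 23154 (-0.18). Both were further below the median gene than 2 spot SDs of their own brightness class. Their parent genes had the opposite sign, with Rpl7 at 0.15 (signals 147465 and 161282) and Rpl22 at 0.05 (57705 and 67758). After quantile normalization 10 of 79 genes had a difference above 0, so the sign of a parent gene depends on the scaling.

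Rpl21 was the 1 standard ribosomal protein gene of bright signal with a difference below the median gene, at -0.06 with signals of 59610 in S180 and 75468 in DMSO. A second probe of Rpl21 gave 0.25, with signals of 48245 and 49290, so its probes did not give 1 direction. Rpl34 lay at 0.01 (signals 65688 and 79452; SE over replicate spots 0.012). Rpl23, an interface protein of the large subunit that also binds the p53 regulator Mdm2, lay at 0.03 on the brightest probe and at 0.22 on another. Rps21 lay at 0.04, with signals of 105608 and 125125. Of these low values in standard bright genes, those of Rpl21 and Rpl23 were thus accompanied by a higher value on another probe.

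Genes of the large subunit grouped by place in the ribosome all lay near the block median. The 5S particle, in which Rpl5 and Rpl11 carry the smallest ribosomal RNA and which binds Mdm2 when ribosome assembly stalls, had differences of 0.08 for Rpl5 (signals 61569 in S180 and 70649 in DMSO) and 0.17 for Rpl11 (128483 and 138304). The stalk that recruits translation factors is built from Rplp0, Rplp1 and Rplp2 on a base with Rpl12. Its 4 genes had differences of 0.16 for Rplp0 (85325 and 92952), 0.14 for Rplp1 (180681 and 199383), 0.22 for Rplp2 (169880 and 177256) and 0.15 for Rpl12 (167129 and 183411). On their brightest probes the 4 stalk genes thus lay close together, between 0.14 and 0.22. Around the exit tunnel, Rpl4 was at 0.20, Rpl35 at 0.17, Rpl39 at 0.14, Rpl23a at 0.12 and Rpl17 at 0.08. Signals for the tunnel genes were 55698 in S180 and 59031 in DMSO for Rpl4, 101854 and 110168 for Rpl35, 128097 and 140942 for Rpl39, 69216 and 77627 for Rpl23a, and 59197 and 68289 for Rpl17. On the brightest probe, all 11 genes of these 3 groups had a lower unscaled signal in S180 and a positive difference after percentile scaling. Other measured probes lay below 0 for Rpl17 (-0.09, SE 0.012, and -0.04, SE 0.015) and Rpl12 (-0.01 and -0.32). A probe of Rpl39 was at -0.05, and the remaining measured probes of the 11 genes were above 0.

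In the small subunit, the proteins that line the mRNA path gave the same picture. Rps14, at the platform, was at 0.20 (signals 164341 in S180 and 173373 in DMSO), Rps26, at the mRNA exit, at 0.20 (130014 and 137445), and Rps2, at the entry, at 0.16 (110076 and 119487). Rps3, also at the entry, was at 0.11 (106574 and 119676) and Rps28 at 0.08 (130867 and 150072). The 5 genes had a median of 0.16 beside 0.14 for the whole small subunit. Rps6, the protein phosphorylated by S6 kinase downstream of mTOR, was at 0.13 (SE 0.016) on its brightest probe, with signals of 78671 and 87119, and at -0.03 (SE 0.0075) on another replicated probe. Rps27a, made as a fusion with ubiquitin, was at 0.14 (173109 and 190403). Fau, made as a fusion with a ubiquitin-like protein and left out by the name rule, was at 0.25 (178482 and 182087). Rack1, a signalling scaffold on the small subunit that the files list as Gnb2l1, was at 0.34 on its brightest probe. The unscaled signal of that probe was higher in S180 (106664) than in DMSO (102372). Another probe of Gnb2l1 gave 0.10, with an unscaled signal lower in S180 (43941) than in DMSO (49792). The 19 genes on a list of Diamond-Blackfan genes had a median of 0.15. With percentile scaling 19 of 19 lay above the median gene, where 50% of all measured genes lie. Their median scaled signal was 7.22, and 273 genes outside the ribosomal protein set at signals of 7 to 8 had a median difference of 0.19 and a lower quartile of 0.13.

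Copies of ribosomal protein genes were the members not measured. Rpl10l and Rpl39l, known for expression in testis, Rpl3l, known for expression in muscle, and Rps4l were not well above background on either array, with processed signals of 2.65 to 10.8 in S180 and 3.31 to 14.5 in DMSO. Rps27l, a copy of Rps27 that p53 can induce, was measured at 0.05 (signals 47978 and 56383), with a second probe at -0.04. Of 7 members with such a copy name 3 were measured, and 2 of these, Rpl7l1 and Rpl22l1, lay below the median gene. The 9 parent genes on the list lay between 0.05 and 0.26, with 9 of 9 above the median gene under percentile scaling. Their median scaled signal was 7.22, and 273 genes outside the ribosomal protein set at signals of 7 to 8 had a lower quartile of 0.13.

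Other genes of high signal also had a median difference above 0 after percentile scaling, and at the highest signals the median of the ribosomal protein genes lay below theirs. Between scaled log2 signals of 6 and 9, the 76 ribosomal protein genes had a median difference of 0.144 and 839 other genes a median of 0.139, with 43 of the 76 above the median of the others. Most of the others, 526 of 839, lay at the lower end of that range. The ribosomal protein genes were spread more narrowly, with an SD of 0.063 against 0.157. Within narrower ranges of signal, 19 ribosomal protein genes at 6 to 7 had a median of 0.11 beside 0.10 for 526 others, with 10 of the 19 above the median of those others. At 7 to 8 the 47 ribosomal protein genes had 0.15 beside 0.19 for 273 others, with 11 of the 47 above the median of those others. At 8 to 9 the 10 ribosomal protein genes had 0.20 beside 0.29 for 40 others, with 0 of the 10 above the median of those others. Over all measured genes split into 10 groups of equal number by signal, the group medians lay between -0.05 and 0.08, with the highest in the group of brightest genes, which held 77 of the 79 ribosomal protein genes. Signal moved with the difference, and its part in the position of the ribosomal protein genes above the median gene was not tested beyond these values. In bulk RNA of this kind a change in the share of cells of a type and a change in RNA per cell cannot be told apart.

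**Figure D2:**
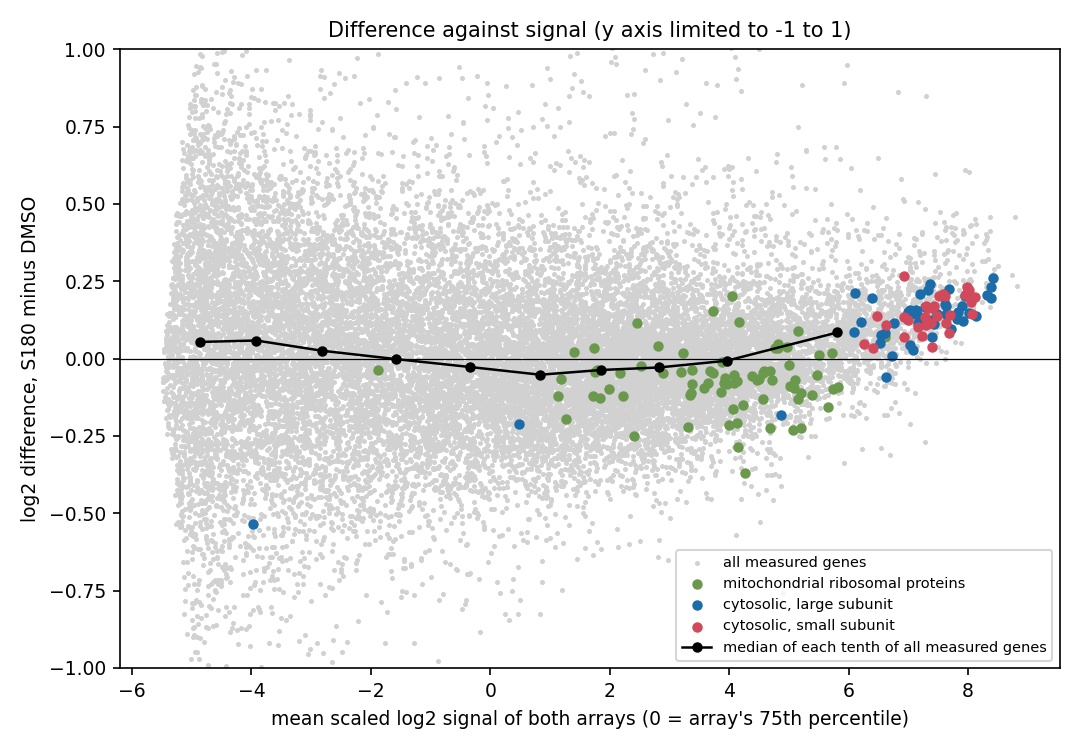
Log2 difference, S180 minus DMSO, against the mean scaled log2 signal of both arrays for all 20782 measured genes (grey), with ribosomal protein genes in blue (large subunit) and red (small subunit) and mitochondrial ribosomal proteins in green. The black line joins the medians of the 10 groups of equal number; it ends at 0.08 in the brightest group, where 77 of the 79 ribosomal protein genes lie, and these positions above 0 hold with percentile scaling and not after quantile normalization, where 10 of 79 genes were above 0.

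Different probes of a gene often disagreed by more than the spots allow. In 58 genes with at least 2 measured probes (150 probes), all probes were above 0 in 36 genes and the signs disagreed in 22. This was not particular to these genes. The signs disagreed in 124 of 293 other genes whose brightest probe lay between 6 and 9, and in 3095 of 7329 other genes of any signal. Among probes less than 16-fold dimmer than the brightest, the SD within a gene was 0.092 (130 probes of 55 genes). It was larger than the SD of 0.060 between the brightest probes of those genes. In the other genes the SD within a gene was 0.112 (brightest probe between 6 and 9) and 0.172 (any signal). Their SDs between brightest probes were 0.160 and 0.238. In 17 pairs of replicated probes of 13 genes, the probes differed by a median of 0.059 with a median SE of 0.019, and 11 pairs differed by over 2 SE. The widest such pair, chosen after its values were seen, belonged to Rpl36, at 0.14 (SE 0.013) and -0.03 (SE 0.013), and its second probe is placed on another chromosome (X) than the first (17) in the files. The brightest probe alone therefore gives a finer order of genes than the probes together bear out.

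Dim probes of ribosomal protein genes mostly went the other way. There were 17 measured probes, in 16 genes, at least 16-fold dimmer than the brightest probe of their gene, and 14 of the 17 were below 0, with a median of -0.21 (range -0.49 to 0.19) beside a median of 0.15 for the brightest probes of the same genes. In other genes whose brightest probe lay between 6 and 9, 107 of 227 such dim probes were below 0, with a median of 0.01. These signs hold with percentile scaling. Each of the 17 probes had 1 spot per array. Some of them lay among the dim measured probes, where the SD of a single-spot difference was 0.266, so their signs are uncertain. The 4 genes with probes farthest apart were Rps12, Rps24, Rps20 and Rpl10a, of which Rps12, Rps24 and Rps20 belong to the small subunit. Rps12, a small subunit beak protein, had signals of 120070 in S180 and 126914 in DMSO on the brightest probe (0.20), and of 572 and 977 (-0.49) on a probe at chr10:23506043-23506102 (mm9, as in the files). Rpl10a, a protein of the mobile L1 stalk, had 144920 and 161332 (0.13) against 834 and 1412 (-0.48) at chr17:28466103-28466162. In both genes the dim probe was lower in S180 by far more than the bright probe, before and after scaling. Rps24 had 4 measured probes, and the other probes lay at -0.07, -0.36 and -0.40, the last with signals of 778 and 1250 at chr14:25314669-25314728, so the highest value of the set rests on 1 of 4 probes. Rps20 had 0.17 (113049 and 122230), 0.31 (67066 and 65810) and -0.34 (562 and 864, at chr4:3758777-3758836). Whether these dim probes lie in exons, introns or untranslated regions was not annotated here.

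**Figure D3:**
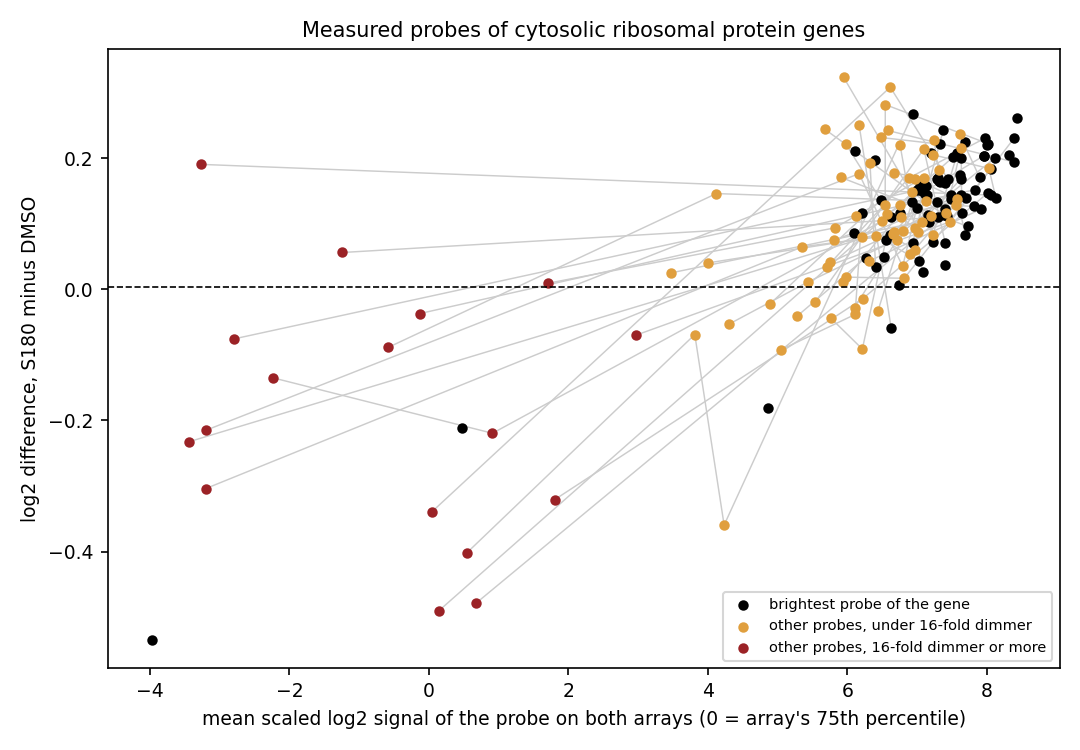
Log2 difference, S180 minus DMSO, against mean scaled log2 signal for the 171 measured probes of ribosomal protein genes, with lines joining the probes of a gene and the dashed line at the median of all measured genes. Black points are the brightest probe of each gene, orange points other probes and dark red points the 17 probes at least 16-fold dimmer than the brightest, of which 14 lie below 0 with percentile scaling.

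The rest of the translation machinery was described by lists of genes, each with its count above the median gene, where 50% of all measured genes lie. Other mRNAs with a TOP tract had a median of 0.12 and 17 of 17 above the median gene. All 17 were in the brightest of 3 groups by signal, with a median scaled signal of 6.40. At scaled signals of 6 to 7, 526 genes outside the ribosomal protein set had a median difference of 0.10 and a lower quartile of 0.03. The TOP list was led by Tpt1 at 0.34 (signals 173898 in S180 and 167105 in DMSO), the elongation factor Eef2 at 0.26 and Eef1b2 at 0.23. The lowest of that list were Pabpc1, the cytoplasmic poly(A)-binding protein, at 0.02, and Naca and Npm1 at 0.04 each. This list stayed above the median gene after quantile normalization, at 0.02, where the ribosomal protein genes were at -0.0316. The list of elongation and release factors had a median of 0.14 with 7 of 11 above, and Eef2 was its highest. Its lowest were Eef1e1, listed under an elongation factor name, at -0.35 and Gspt2 at -0.16. Of its genes, Eef1d, Eef1g, Eef1a1, Eef1b2 and Eef2 are also on the TOP list, so these lists are not independent. Likewise Eif4b, Eif3e, Eif3f and Eif3h are on both the TOP and the initiation list, and Npm1 on both the TOP and the assembly list. Initiation factors had a median of 0.03 with 24 of 40 above, but lay below the median gene after quantile normalization (-0.012), in the authors' deposited table (-0.012) and with normexp background correction (-0.027). The highest of these was Eif4ebp1, the repressor of cap-dependent translation that mTOR inactivates, at 0.54 with signals of 54424 and 45335. Eif3c (0.29) and Eif5a (0.27) followed, and Eif5b was the lowest at -0.21.

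Mitochondrial ribosomal proteins and assembly factors stood on the other side. The 77 measured mitochondrial ribosomal protein genes had a median of -0.07, and 16 of 77 lay above the median gene. Their extremes were Mrpl36 at -0.37 (signals 10471 and 16446) and Mrpl54 at 0.20 (10915 and 11540). Factors that build ribosomes, and make or modify ribosomal RNA, had a median of -0.11 with 9 of 41 above the median gene. Dkc1, which turns uridines of ribosomal RNA into pseudouridine, was 1.5-fold lower in S180 with signals of 960 and 1753, and Gnl3, or nucleostemin, was at -0.41 (2804 and 4542). Nmd3, the export adapter of the large subunit, was at -0.33. Both lists stayed below the median gene in the processing alternatives run, whereas the ribosomal protein genes were above it or below it depending on the scaling. In the brightest of the 10 groups by signal there were 23 of the mitochondrial genes, with a median of -0.07, beside 0.14 for the 77 cytosolic genes there. The sets were not matched in signal within that group, which spans scaled signals of 4.69 to 8.82. The median signal was 4.06 over all 77 mitochondrial genes and 7.33 over all 79 cytosolic genes.

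**Figure D4:**
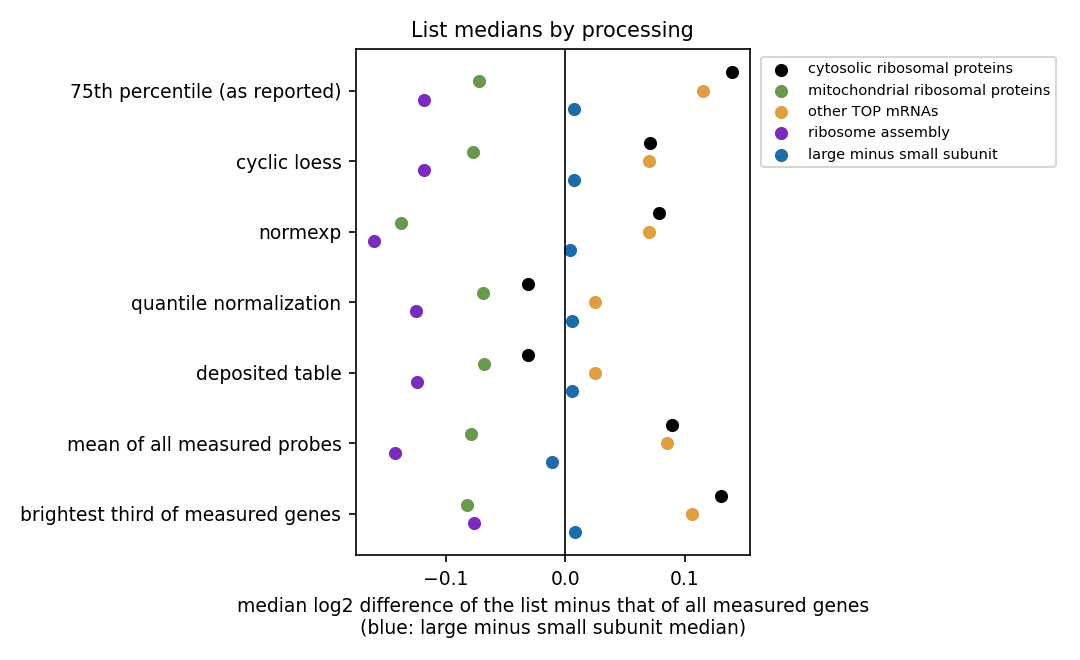
Median log2 difference, S180 minus DMSO, of each list minus the median of all measured genes, for the scaling used and 6 alternatives, with the large subunit median minus the small subunit median in blue. The cytosolic ribosomal proteins move from 0.14 to -0.03 (-0.0316 after quantile normalization), while the mitochondrial ribosomal proteins and the assembly factors stay below 0 and the subunit difference stays near 0.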

How the data were processed

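Per the labels' protocols, cRNA labelled with Cy3 was made from total RNA and each of the 2 samples was put on an Agilent mouse expression array of its own. Processed spot intensity was deposited on a linear scale as written by Agilent Feature Extraction 10.7.1.1, named in the file headers and the submitters' processing notes. It was background-subtracted, corrected for spatial and multiplicative trends, carried surrogate values for dim spots and was not normalized between arrays, per the file headers. The deposited table of log2 values served as an alternative, and the authors' steps in making it are not given in the sources used here.

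Control spots and spots with outlier marks (120 on the S180 array, 195 on the DMSO array) were left out. For each probe the log2 intensities of its spots were averaged, and the 75th percentile of all probes on the array was then subtracted. A gene was its brightest probe well above background on both arrays. Well above background were 36717 spots (61.9% of 59305 that were not controls) in S180 and 35921 (60.6%) in DMSO. Differences are S180 minus DMSO. Spot errors came from probes with at least 8 kept spots on both arrays. The number of columns of other samples was 0. Python 3.11.15 (numpy 2.4.6, pandas 2.3.3, matplotlib 3.10.9) and R 4.3.3 with limma 3.58.1 (normexp with offset 50, quantile, cyclic loess) were used, and the computations were tested on simulated data.

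The genes and lists were chosen with earlier results of these data known. Named were genes of the role groups, the 8 largest and 8 smallest differences, the 4 brightest and 4 dimmest measured genes and the 4 with probes farthest apart. Those not measured were named too and, from other lists, the 3 largest and 3 smallest. Others are marked as chosen after their values were seen, apart from parents of copies and genes shared between lists. Probe positions are on mm9 as in the files. RefSeq sequences and start positions are those of GRCm38.p6. A probe sharing 25 bases with a probe of another gene name was held by 25 of the 79 genes as their brightest, and its signal can include both targets. For Rpl13, Rps29 and Rps27 the brightest probe is placed on another chromosome than the gene in RefSeq. Some genes are not reported here by name.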

Additional observations from a re-analysis of the deposited data

How the results depend on the processing

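No paired analysis was possible because each group had 1 array, and leaving out an array was not possible either. The medians below are log2 differences minus that of the median gene. For the ribosomal protein genes the median was 0.139 as reported, -0.0316 after quantile normalization, -0.0310 in the authors' deposited table, 0.0707 with cyclic loess, 0.0784 with normexp and 0.0895 with the mean of all measured probes. Against genes with scaled signals of 6 to 9, an alternative chosen after seeing the data, it was 0.00463, with 42 of 76 genes above; 20 of 79 were above after quantile normalization and 20 in the deposited table. The difference of subunit medians stayed between -0.011 and 0.0096, and that of means was -0.029. Other TOP mRNAs (0.115) moved to 0.0245 (quantile), 0.0251 (deposited), 0.0696 (loess) and 0.0705 (normexp). Elongation and release factors (0.132) moved to 0.0191 (quantile), 0.0154 (deposited), 0.0838 (loess), 0.0716 (normexp) and 0.0760 (mean of probes). Normexp also took the mitochondrial ribosomal proteins from -0.0724 to -0.137, initiation factors from 0.0280 to -0.0267 (-0.0121 with quantile values, -0.0118 in the deposited ones) and assembly factors from -0.119 to -0.160. Assembly factors were at -0.0764 in the brightest of 3 groups by signal. The numbers of all genes 1.5-fold higher and lower, 640 and 356 as reported, were 201 and 1873 without scaling, 146 and 2975 with spike-in scaling, 262 and 61 with normexp, 3959 and 2064 without the filter on dim probes and 115 and 7 in that brightest group. The cause was not tested. The other 92 recomputed summary values moved by less than the spot SD of bright probes (0.042) or, for counts, by at most 1.5 times. Part of these 92 could not move. No scaling, centring on the median gene and spike-in scaling differ from percentile scaling by 1 constant per array, which cancels in list and subunit medians. Differences of single ribosomal protein genes moved by more than 0.042 in 441 of 867 recomputations. Dim probes have the larger spot error, 0.266 against 0.042 in bright ones.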

Other observations

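Among the 76 ribosomal protein genes with a mean scaled log2 signal of 6 or more, the log2 difference went with the signal of the brightest probe across genes, with a Pearson's r of 0.50 (0.48 in 45 large subunit genes and 0.54 in 31 small subunit genes). These genes share both arrays and are not independent replicates. Probe GC content, between 35% and 60%, gave an r of -0.07. Genes whose brightest probe shares 25 bases with a probe of another name had the same median difference, 0.14, as the genes whose probe does not, although such sharing is found in 3.74% of all measured genes and in 25 of 79 ribosomal protein genes.

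Rps3a1, a small subunit protein outside the name rule, lay at 0.08 on its brightest probe (signals 80622 in S180 and 92857 in DMSO), with other probes at -0.04, 0.22 and 0.24. Rpl36al, a copy of Rpl36a outside the rule, lay at -0.04 (27757 and 34753), with another probe at 0.10. Both were chosen after their values were seen.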
